A study of Mus musculus with 10 samples.

Results

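Prdm1, Irf4, Batf, Nfil3 and Id2 encode transcription factors associated with effector regulatory T cells (eTregs), and the accessibility of chromatin at these 5 genes was followed in Tregs with and without Vps34. A peak was assigned to a gene by position alone, when it overlapped the gene or lay within 10 kb of it in the GENCODE annotation of GRCm38, which gave 37 of the 97385 peaks in the table. Irf4 had 11 of these peaks, Prdm1 10, Batf 7, Nfil3 6 and Id2 3. Each peak is named by its gene and the distance in kb of its middle from the first protein-coding transcription start, with a minus sign for peaks upstream of it. Accessibility was measured by bulk ATAC-seq, in which a transposase inserts sequencing adaptors into open DNA, and is given as CPM, the count scaled to a library's total.

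Total Tregs were sorted as CD4+ TCRβ+ cells with the Foxp3-YFP reporter from 10-day-old C57BL/6 mice of both sexes. Vps34-deficient mice were Foxp3Cre Pik3c3 fl/fl and lacked Vps34, the lipid kinase encoded by Pik3c3, in cells that express Foxp3. Control mice were Foxp3Cre Pik3c3 +/+ or Foxp3Cre Pik3c3 +/fl, so that both groups carried the Cre-YFP allele and some controls may have had only 1 intact copy of Pik3c3. There were 2 control and 4 Vps34-deficient libraries of spleen, and 2 libraries of each genotype of lung. The study's methods and figure legends give 4 control and 2 Vps34-deficient spleen samples. Group sizes here follow the labels, which match the columns of the table, and which is right was not settled. The labels do not say whether libraries came from separate mice, so p-values measure the spread between these libraries. ATAC-seq peaks do not measure the Pik3c3 transcript, so its loss was not checked. In sorted bulk cells, fewer cells of one Treg state and less accessibility per cell cannot be told apart.

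Effector Tregs arise from central Tregs after antigen receptor signalling and settle in lymphoid and non-lymphoid tissues. IRF4 is induced by receptor signalling and binds DNA together with BATF, an AP-1 family protein that pairs with JUN proteins. Prdm1 encodes Blimp-1, a zinc finger repressor that acts late in effector differentiation and is needed for Il10 expression in eTregs. NFIL3 is a basic leucine zipper protein that binds D-box sites and marks Tregs on the path to tissues. ID2 lacks a DNA-binding region and holds E proteins away from E-box sites.

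The 6 sequences below show, at each gene, the peak with the smallest p-value for genotype over both tissues, and the further called Prdm1 peak. Each is the 300 bases around the middle of the peak on the plus strand of GRCm38.p6, taken from the RefSeq assembly. Capitals mark matches to the AP-1 letters TGANTCA and the E-box letters CANNTG on either strand, in which N stands for any base. The Prdm1 +23.92 kb window is chr10:44434676-44434975, downstream of the gene. The Prdm1 +8.90 kb window is chr10:44449701-44450000, in an intron. The Nfil3 +4.35 kb window is chr13:52976570-52976869, in an intron. The Irf4 -6.65 kb window is chr13:30742426-30742725, upstream of the gene. The Batf +1.38 kb window is chr12:85687898-85688197, in an intron. The Id2 -1.78 kb window is chr12:25098770-25099069, upstream of the gene.
Prdm1 +23.92 kb: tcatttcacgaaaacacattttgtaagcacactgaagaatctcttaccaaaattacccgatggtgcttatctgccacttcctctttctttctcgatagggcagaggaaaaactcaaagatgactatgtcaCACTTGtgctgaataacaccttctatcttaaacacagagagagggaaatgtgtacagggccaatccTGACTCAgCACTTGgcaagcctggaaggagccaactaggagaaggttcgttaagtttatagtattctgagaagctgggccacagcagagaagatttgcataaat
Prdm1 +8.90 kb: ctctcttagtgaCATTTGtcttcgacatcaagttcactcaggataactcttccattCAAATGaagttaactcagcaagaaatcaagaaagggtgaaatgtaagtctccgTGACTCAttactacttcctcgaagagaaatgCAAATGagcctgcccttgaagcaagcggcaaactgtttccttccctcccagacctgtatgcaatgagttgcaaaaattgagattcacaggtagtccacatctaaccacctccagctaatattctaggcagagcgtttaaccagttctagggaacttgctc
Nfil3 +4.35 kb: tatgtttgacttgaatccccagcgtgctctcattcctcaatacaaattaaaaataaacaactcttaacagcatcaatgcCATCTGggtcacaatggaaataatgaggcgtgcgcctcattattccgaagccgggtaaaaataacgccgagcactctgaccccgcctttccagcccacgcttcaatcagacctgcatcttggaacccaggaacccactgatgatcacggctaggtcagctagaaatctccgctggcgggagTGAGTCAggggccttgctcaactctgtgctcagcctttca
Irf4 -6.65 kb: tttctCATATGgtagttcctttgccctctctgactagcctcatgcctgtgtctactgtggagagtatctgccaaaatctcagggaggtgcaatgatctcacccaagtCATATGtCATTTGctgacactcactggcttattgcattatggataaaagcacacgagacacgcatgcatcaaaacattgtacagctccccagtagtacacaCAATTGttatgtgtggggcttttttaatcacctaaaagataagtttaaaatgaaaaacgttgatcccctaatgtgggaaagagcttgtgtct
Batf +1.38 kb: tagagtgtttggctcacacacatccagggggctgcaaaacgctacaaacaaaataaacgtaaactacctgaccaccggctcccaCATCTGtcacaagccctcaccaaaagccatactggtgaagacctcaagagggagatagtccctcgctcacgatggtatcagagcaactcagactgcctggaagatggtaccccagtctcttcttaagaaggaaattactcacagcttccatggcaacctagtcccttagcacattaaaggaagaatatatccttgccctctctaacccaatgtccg
Id2 -1.78 kb: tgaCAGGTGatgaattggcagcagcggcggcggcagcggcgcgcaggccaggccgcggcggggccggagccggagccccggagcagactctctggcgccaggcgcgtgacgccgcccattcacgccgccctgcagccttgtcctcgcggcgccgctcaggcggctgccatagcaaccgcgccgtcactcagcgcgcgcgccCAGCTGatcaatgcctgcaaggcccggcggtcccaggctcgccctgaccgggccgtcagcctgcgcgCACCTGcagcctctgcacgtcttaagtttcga
Of these windows, the Prdm1 and Nfil3 sequences hold an AP-1 match, at bases 197 to 203 and 110 to 116 of the Prdm1 windows and at bases 261 to 267 of the Nfil3 window. The Irf4, Batf and Id2 windows hold E-box matches alone.

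The libraries held between 9405823 and 22439699 counts in all, and the 37 peaks held a mean of 13.4 to 1204 counts per library. All 37 passed the filter on low counts that left 97109 peaks to be tested. The cell identity of the sort was checked on summed CPM of peaks within 1 kb of the starts of marker genes. All 6 Treg markers (Foxp3, Il2ra, Ikzf2, Ctla4, Cd3e and Cd4) had such peaks, with sums of 195 to 274 CPM over the 10 libraries. Of the myeloid markers 4 of 6 had one and Csf1r and Lyz2 had none, and the sum was 49.1 to 54.3 CPM in control lung against 31.8 to 32.7 CPM in Vps34-deficient lung, and 42.6 to 44.7 CPM against 30.5 to 37.5 CPM in spleen. The CD8 and NK cell markers, with peaks at 4 of 6 and none at Ncr1 and Klrb1c, went the other way in lung, from 29.1 to 33.8 CPM in controls to 38.7 to 44.9 CPM. Lung epithelial markers had peaks at 3 of 6 (none at Sftpc, Krt8 and Scgb1a1) and sums of 34.1 to 35.5 CPM in control spleen against 28.3 to 32.4 CPM in Vps34-deficient spleen, and of 25.1 to 30.9 CPM against 26.6 to 26.7 CPM in lung. Endothelial markers had peaks at 5 of 6 (none at Tie1) and sums of 40.4 to 51.3 CPM.

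To compare how open the 5 genes were, the summed CPM of each gene was divided by the total width of its peaks. Id2 had the highest density, with a mean of 94.0 CPM per kb of peak and a range of 80.2 to 102 over the 10 libraries. Prdm1 followed with 36.2 CPM per kb (33.1 to 38.8) and did not overlap the others. Irf4 (27.7, from 23.2 to 31.8), Batf (23.3, from 20.3 to 31.5) and Nfil3 (19.8, from 14.4 to 25.1) followed in that order of mean, with ranges that overlapped one another.

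Accessibility was lower in Vps34-deficient lung Tregs at 3 single peaks, 2 at Prdm1 and 1 at Nfil3, and no promoter of the 5 genes was called for genotype in either tissue. A peak was called when edgeR's quasi-likelihood test gave a Benjamini-Hochberg adjusted p below 0.05 over all 97109 tested peaks and the absolute log2 fold change was above 0.5. In lung, 0 of the 37 peaks were called higher and 3 lower in Vps34-deficient Tregs, while 1.22% of all tested peaks were called higher and 3.74% lower. The median log2 fold change of the 37 peaks in lung was -0.16 and that of all peaks 0.02, and 28 of the 37 values were negative, as were 48.2% of all values. In spleen, 0 of the 37 peaks were called in either direction, against 0.44% higher and 1.02% lower among all peaks. The smallest adjusted p of the 37 in spleen was 0.122 by edgeR's test, and DESeq2 also called 0. An unadjusted edgeR p below 0.05 was found at 4 of the 37 in spleen and 12 in lung, and at 13895 and 19692 of all 97109 tested. The median in spleen was -0.02, with 0.05 for all peaks.

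**Figure D1:**
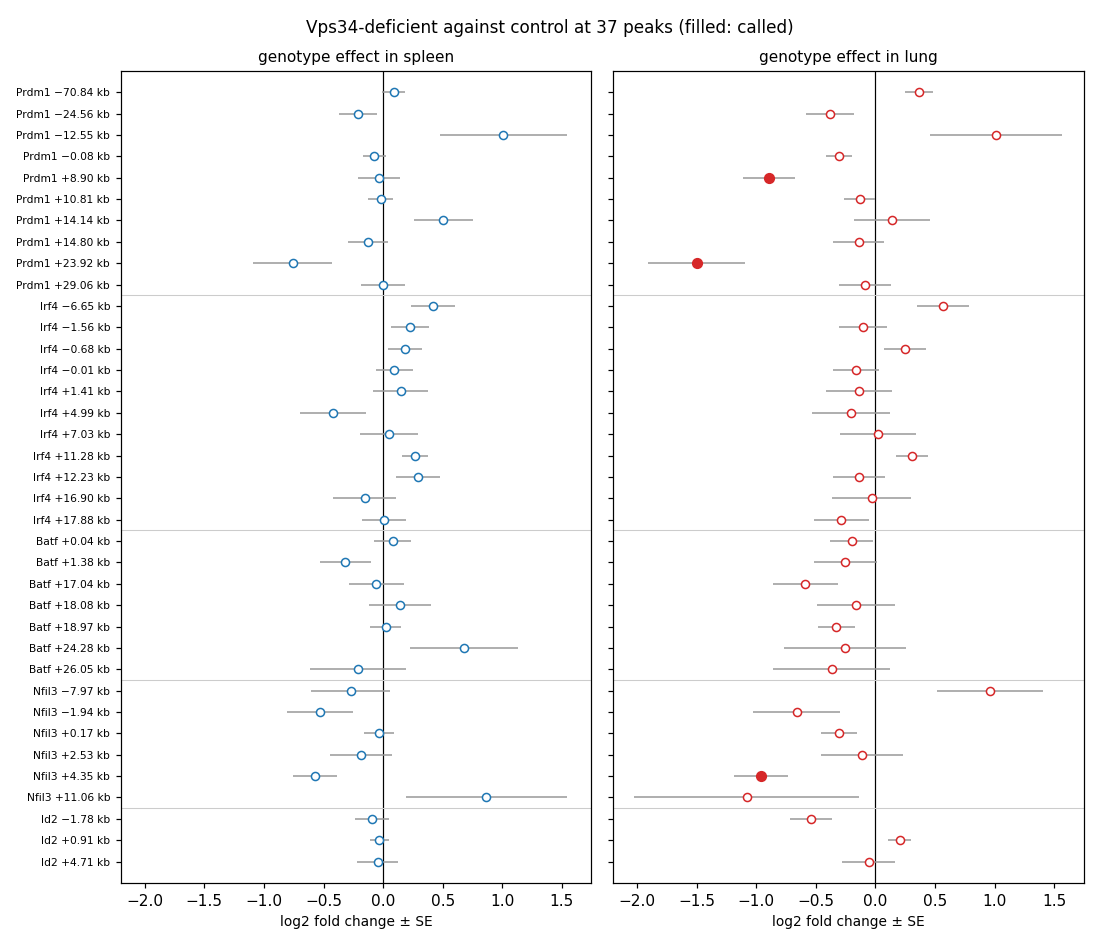
Log2 fold change of Vps34-deficient over control Tregs (x axis, circle) with its standard error (line) at each of the 37 peaks in spleen (left) and lung (right), ordered by gene and by distance in kb from the first protein-coding start. Filled circles are the 3 called peaks, all lower and all in lung, at log2 values of -0.89, -0.96 and -1.50.

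Counted without a model, every Vps34-deficient spleen library lay above both spleen controls at 5 of the 37 peaks and below both at 4, which was the case for 15.0% and 11.1% of all tested peaks. All 5 of the former were Irf4 peaks. In lung, both Vps34-deficient libraries lay above both controls at 6 of the 37 peaks and below both at 11, against 23.8% and 22.0% of all tested peaks. The libraries separated downwards in both tissues at 2 peaks, Prdm1 +23.92 kb and Nfil3 +4.35 kb, against 6.37% of all peaks. They separated upwards in both tissues at 2 peaks, Irf4 -6.65 kb and Irf4 +11.28 kb, against 6.2% of all peaks. Only the count of 11 in lung was above its background share.

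With spleen and lung in 1 model with tissue and genotype, 0 of the 37 peaks were called higher and 2 lower in Vps34-deficient Tregs, against 3.52% and 4.05% of all peaks. The 2 were the peaks that separated downwards in both tissues. None of the 37 peaks had a called difference between the genotype effect in lung and that in spleen, and neither had any other peak (0.0% of those tested by edgeR). The smallest adjusted p of the 37 for that difference was 0.469 by edgeR's test, and DESeq2 called 0 of the 37. An unadjusted edgeR p below 0.05 was found at 2 of the 37, and at 7065 of all 97109 peaks tested.

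Nfil3 had the peak with the smallest p-value, Nfil3 +4.35 kb at chr13:52976397-52977041. It measured 14.1 and 15.7 CPM in control spleen, 9.39, 8.62, 10.0 and 11.9 CPM in Vps34-deficient spleen, 16.6 and 27.1 CPM in control lung and 11.8 and 11.2 CPM in Vps34-deficient lung. In each tissue all Vps34-deficient libraries were lower than both controls, and the second lung control was the highest of all 10. The peak was 1.95-fold lower in Vps34-deficient lung Tregs (log2 -0.96 ± 0.22 SE, edgeR adjusted p = 0.0113). In spleen the log2 fold change was -0.57 ± 0.19 (edgeR adjusted p = 0.122), which was called at -0.61 with the spleen libraries alone and without either lung control, and over both tissues it was -0.74 ± 0.15 (edgeR adjusted p = 0.00222). The difference between the lung and the spleen effect was -0.39 ± 0.29 (edgeR adjusted p = 0.823). Without the second lung control the lung value was -0.51 and was no longer called, and the value over both tissues was called whichever library was left out. Its AP-1 match lies toward the end of the sequence shown.

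The other 5 Nfil3 peaks were not called in either tissue. The promoter peak, Nfil3 +0.17 kb at chr13:52980236-52981573, was also the highest of the gene, with 45.0 and 42.7 CPM in control spleen and 43.5, 44.3, 37.8 and 45.1 CPM in Vps34-deficient spleen. In lung it had 37.2 and 46.2 CPM without and 40.1 and 28.4 CPM with the deletion. The groups overlapped in both tissues, and the log2 fold change was -0.04 ± 0.13 in spleen and -0.31 ± 0.15 in lung (edgeR adjusted p = 0.938 and 0.256). The lung value was -0.51 without the first and -0.0050 without the second Vps34-deficient lung library. The sum of the 6 peaks gave a log2 fold change of -0.16 ± 0.11 in spleen, -0.40 ± 0.13 in lung and -0.26 ± 0.08 over both tissues (edgeR adjusted p over 17594 genes 0.669, 0.0999 and 0.0733). With 1 library left out the lung sum ranged from -0.59 to -0.20, and it was called without the first lung control (-0.54).

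Prdm1 held the other 2 lung calls, and both lie on the 3′ side of its promoter. Prdm1 +23.92 kb, at chr10:44434659-44434992 just past the end of the gene, had 3.56 and 2.62 CPM in control spleen, 1.81, 2.08, 0.993 and 2.58 CPM in Vps34-deficient spleen, 4.89 and 6.35 CPM in control lung and 1.95 and 2.12 CPM in Vps34-deficient lung. All Vps34-deficient libraries were again lower than the controls of their tissue, by a narrow margin in spleen. The level was 2.83-fold lower in lung (log2 -1.50 ± 0.40 SE, edgeR adjusted p = 0.0297), the spleen value was -0.76 ± 0.33 (edgeR adjusted p = 0.285), and over both tissues it was -1.06 ± 0.27 (edgeR adjusted p = 0.0123). The lung minus spleen difference was -0.74 ± 0.53 (edgeR adjusted p = 0.810).

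Prdm1 +8.90 kb, at chr10:44449701-44449999 in an intron, was lower than in the controls in both Vps34-deficient lung libraries and overlapped in spleen. It had 10.6 and 9.51 CPM in control spleen and 8.90, 10.8, 8.94 and 10.6 CPM in Vps34-deficient spleen, which overlapped. In lung it had 12.3 and 14.4 CPM without and 7.47 and 7.20 CPM with the deletion, which did not. The level was 1.85-fold lower in lung (log2 -0.89 ± 0.22 SE, edgeR adjusted p = 0.0159) and the spleen value was -0.04 ± 0.18 (edgeR adjusted p = 0.958). The test of the difference between both effects gave -0.85 ± 0.28 and did not pass (edgeR adjusted p = 0.469, the smallest of the 37). All 3 lung calls, those at Prdm1 and the one at Nfil3, were lost when the second lung control or either Vps34-deficient lung library was left out, and when the lung libraries were fitted alone, and all 3 were made without the first lung control. In the fits that lost the calls the log2 fold changes were -1.25 to -1.50 at Prdm1 +23.92 kb, -0.73 to -0.89 at Prdm1 +8.90 kb and -0.51 to -0.96 at Nfil3 +4.35 kb. Over all peaks, those called lower in lung fell as well, from 3631 to 1045 without the second lung control, to 1370 and 1851 without either Vps34-deficient lung library and to 1685 with the lung libraries alone. Prdm1 +23.92 kb was also lost without the second spleen control (-1.42), and Prdm1 +8.90 kb with the replicate number as a block (-0.88). The levels of myeloid markers and of CD8 and NK cell markers also differed between the lung groups, as given above. That of myeloid markers differed between the spleen groups too. Their part in these 3 calls and in the calls over both tissues was not tested.

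**Figure D2:**
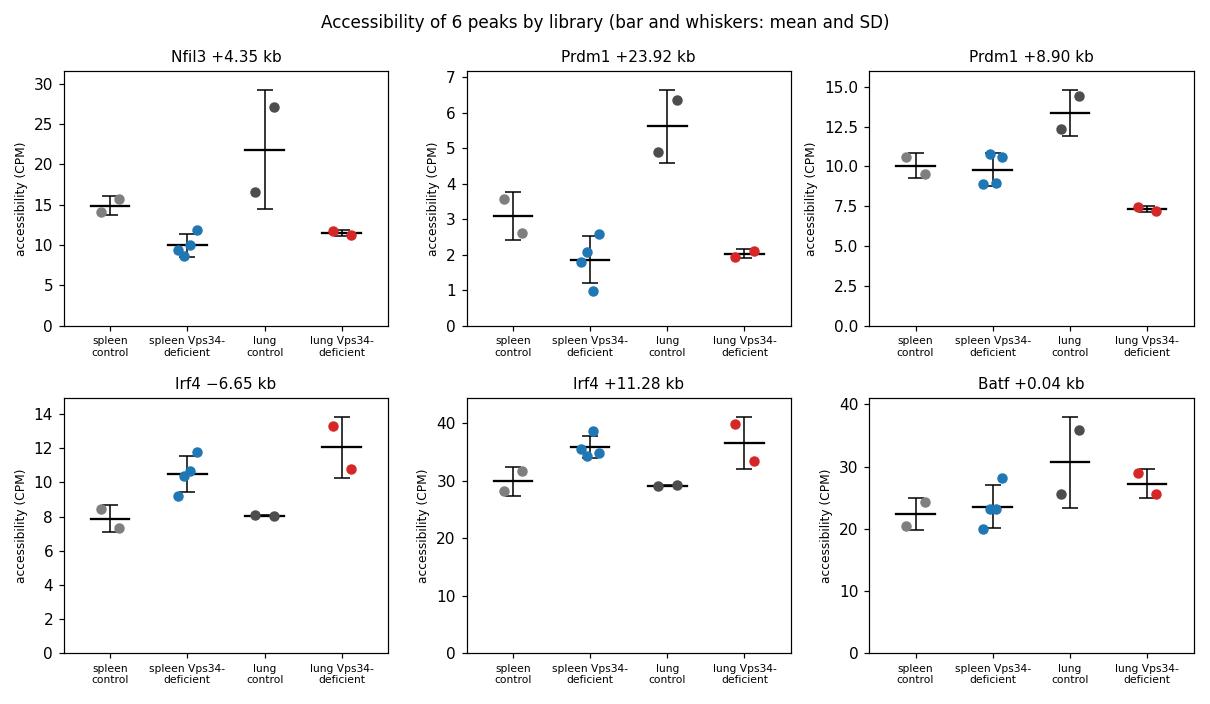
Accessibility in CPM (y axis) of 6 peaks in each library (points) of the 4 groups, with the group mean (bar) and SD (whiskers). Nfil3 +4.35 kb and Prdm1 +23.92 kb are lower in all Vps34-deficient libraries than in the controls of their tissue, Prdm1 +8.90 kb is lower in lung and overlaps in spleen, and both Irf4 peaks are higher in all Vps34-deficient libraries, while the promoter peak Batf +0.04 kb overlaps between genotypes.

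The promoter of Prdm1, Prdm1 -0.08 kb at chr10:44458477-44459184, was its highest peak. It had 60.2 and 57.2 CPM in control spleen and 53.0, 58.3, 56.1 and 55.4 CPM in Vps34-deficient spleen, and 58.9 and 72.0 CPM in control lung against 53.1 and 54.6 CPM in Vps34-deficient lung. The lung groups did not overlap, and the log2 fold change was -0.31 ± 0.11 (edgeR adjusted p = 0.110, and -0.11 without the second lung control), with -0.07 ± 0.09 in spleen (edgeR adjusted p = 0.802). The sum of the 10 Prdm1 peaks had a log2 fold change of -0.01 ± 0.06 in spleen, -0.09 ± 0.07 in lung and -0.05 ± 0.04 over both tissues (edgeR adjusted p = 0.980, 0.454 and 0.590).

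Irf4 had no peak called for genotype, and at 2 of its peaks every Vps34-deficient library was above both controls of its tissue. Irf4 -6.65 kb, at chr13:30742234-30742916 upstream of the gene, had 8.42 and 7.30 CPM in control spleen, 9.18, 10.4, 10.7 and 11.8 CPM in Vps34-deficient spleen, 8.08 and 8.04 CPM in control lung and 13.3 and 10.8 CPM in Vps34-deficient lung. Every Vps34-deficient library was above every control of either tissue. The log2 fold change was 0.42 ± 0.18 in spleen (edgeR adjusted p = 0.285) and 0.56 ± 0.22 in lung (edgeR adjusted p = 0.140). Over both tissues it was 0.48 ± 0.14 (edgeR adjusted p = 0.0342), which passes the test but not the fold threshold, and without the second Vps34-deficient lung library it was 0.51 and called.

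The highest Irf4 peak, Irf4 +11.28 kb at chr13:30760239-30760780 in an intron, separated in the same way. It had 28.2 and 31.7 CPM in control spleen, 35.5, 34.4, 38.7 and 34.9 CPM in Vps34-deficient spleen, 29.1 and 29.2 CPM in control lung and 39.8 and 33.4 CPM in Vps34-deficient lung. The log2 fold change was 0.27 ± 0.11 in spleen and 0.31 ± 0.13 in lung (edgeR adjusted p = 0.262 and 0.185), and over both tissues 0.28 ± 0.09 (edgeR adjusted p = 0.0358), below the fold threshold. The promoter peak, Irf4 -0.01 kb at chr13:30749010-30749428, had 16.1 and 17.0 CPM in control spleen, 16.6 to 18.8 CPM in Vps34-deficient spleen, 11.1 and 15.5 CPM in control lung and 12.3 and 12.1 CPM in Vps34-deficient lung. The promoter values overlapped in both tissues, with a log2 fold change of 0.09 ± 0.15 in spleen and one of -0.16 ± 0.19 in lung (edgeR adjusted p = 0.856 and 0.673). The sum of the 11 Irf4 peaks gave 0.18 ± 0.07 in spleen, 0.14 ± 0.08 in lung and 0.16 ± 0.05 over both tissues (edgeR adjusted p = 0.374, 0.358 and 0.0731). The lung sum ranged from 0.05 to 0.26 with 1 library left out.

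Batf, the partner of IRF4 on DNA, had no peak called for genotype in either tissue. All 7 of its peaks had a negative log2 fold change in lung, from -0.16 to -0.59, with a smallest edgeR adjusted p of 0.230. Its promoter, Batf +0.04 kb at chr12:85686282-85687145, had 20.5 and 24.2 CPM in control spleen, 19.9, 23.1, 23.1 and 28.1 CPM in Vps34-deficient spleen, 25.5 and 35.8 CPM in control lung and 28.9 and 25.6 CPM in Vps34-deficient lung. Genotypes overlapped in both tissues, with a log2 fold change of 0.08 ± 0.15 in spleen and one of -0.20 ± 0.18 in lung (edgeR adjusted p = 0.881 and 0.557). The highest Batf peak, Batf +18.97 kb at chr12:85705018-85706267 in an intron, had 33.7 and 40.6 CPM in control spleen and 34.2 to 45.1 CPM in Vps34-deficient spleen. In lung it had 37.4 and 47.8 CPM without and 35.2 and 34.1 CPM with the deletion, with a log2 fold change of -0.33 ± 0.15 (edgeR adjusted p = 0.230) and 0.02 ± 0.13 in spleen (edgeR adjusted p = 0.967).

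The Batf peak with the smallest p-value over both tissues, Batf +1.38 kb at chr12:85687899-85688196, had 6.95 and 7.58 CPM in control spleen and 5.42, 5.63, 5.69 and 6.53 CPM in Vps34-deficient spleen, and 6.17 and 8.40 CPM in control lung against 5.04 and 7.62 CPM. It separated in spleen and overlapped in lung. Its log2 fold change was -0.32 ± 0.21 in spleen, -0.25 ± 0.26 in lung and -0.29 ± 0.17 over both tissues (edgeR adjusted p = 0.553, 0.626 and 0.294). The sum of the Batf peaks gave 0.03 ± 0.11 in spleen, -0.23 ± 0.13 in lung and -0.08 ± 0.09 over both (edgeR adjusted p = 0.973, 0.325 and 0.633). Without the second lung control the lung values were -0.0028 for the sum and -0.09 for Batf +18.97 kb. Those of Batf +0.04 kb and Batf +1.38 kb then turned positive, at 0.12 and 0.04.

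Id2 had the peak with the highest mean CPM of the 5 genes, at its promoter, and 3 peaks in all. Id2 +0.91 kb, at chr12:25095955-25096513, had 83.0 and 87.8 CPM in control spleen, 88.5, 84.1, 82.6 and 78.2 CPM in Vps34-deficient spleen, 65.3 and 70.2 CPM in control lung and 80.7 and 77.9 CPM in Vps34-deficient lung. The lung controls were the lowest 2 of the 10 libraries. The log2 fold change was 0.20 ± 0.10 in lung and -0.03 ± 0.08 in spleen (edgeR adjusted p = 0.240 and 0.916). The upstream peak went the other way in lung: Id2 -1.78 kb, at chr12:25098763-25099076, had 19.5 and 24.6 CPM in control lung and 16.1 and 14.8 CPM in Vps34-deficient lung, with 21.8 and 19.6 CPM in control spleen and 16.8, 18.8, 22.1 and 19.7 CPM in Vps34-deficient spleen. Its log2 fold change was -0.54 ± 0.17 in lung, -0.09 ± 0.14 in spleen and -0.27 ± 0.12 over both tissues (edgeR adjusted p = 0.0754, 0.848 and 0.157), with -0.31 in lung without the second lung control. The sum of the Id2 peaks gave -0.03 ± 0.06 in spleen, 0.10 ± 0.07 in lung and 0.02 ± 0.05 over both (edgeR adjusted p = 0.926, 0.455 and 0.848).

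**Figure D3:**
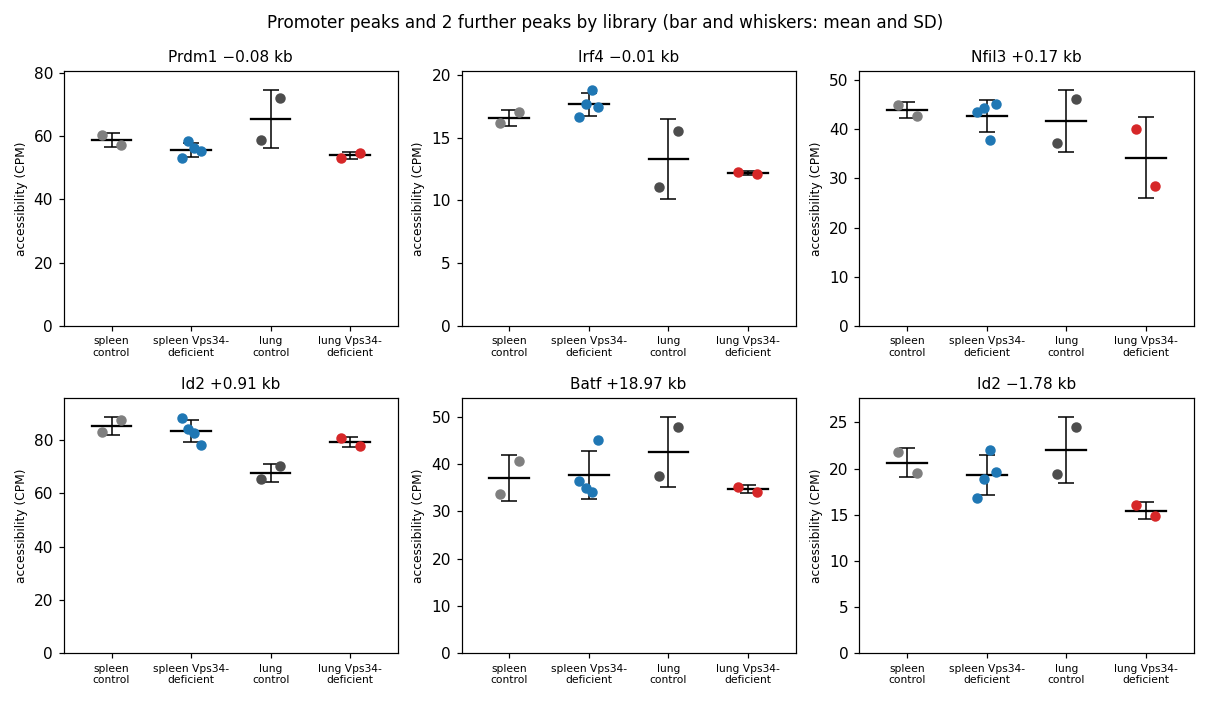
Accessibility in CPM (y axis) of 4 promoter peaks, of the highest Batf peak and of the upstream Id2 peak in each library (points) of the 4 groups, with the group mean (bar) and SD (whiskers). The promoter of Id2 has the highest mean of them, with libraries at 65.3 to 88.5 CPM, and none of the 6 was called for genotype.

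Taken by position, 6 of the 37 peaks lay within 1 kb of a protein-coding start of their gene and 31 did not. None of the 6 was called for genotype in either tissue, and their log2 values lay between -0.07 and 0.18 for spleen and between -0.31 and 0.25 for lung. The 31 others had values of -0.76 to 1.01 in spleen, had values of -1.50 to 1.01 in lung and held all 3 lung calls. How often the promoter peaks of all genes were called was not counted, so 0 of 6 does not set these promoters apart. At the level of whole genes, 0 of the 5 sums were called for genotype in spleen, in lung or over both tissues, against 0.188%, 1.97% and 2.45% of the 17594 genes tested. Of the 5 sums, 1 in spleen, 1 in lung and 2 over both tissues had an unadjusted edgeR p below 0.05. Of the 17594 genes 1776, 3580 and 3878 had, and DESeq2 called 0 of the 5 sums. No gene sum, of these 5 or of any other gene, differed between tissues in its genotype effect by edgeR's test (0.0% called).

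**Figure D4:**
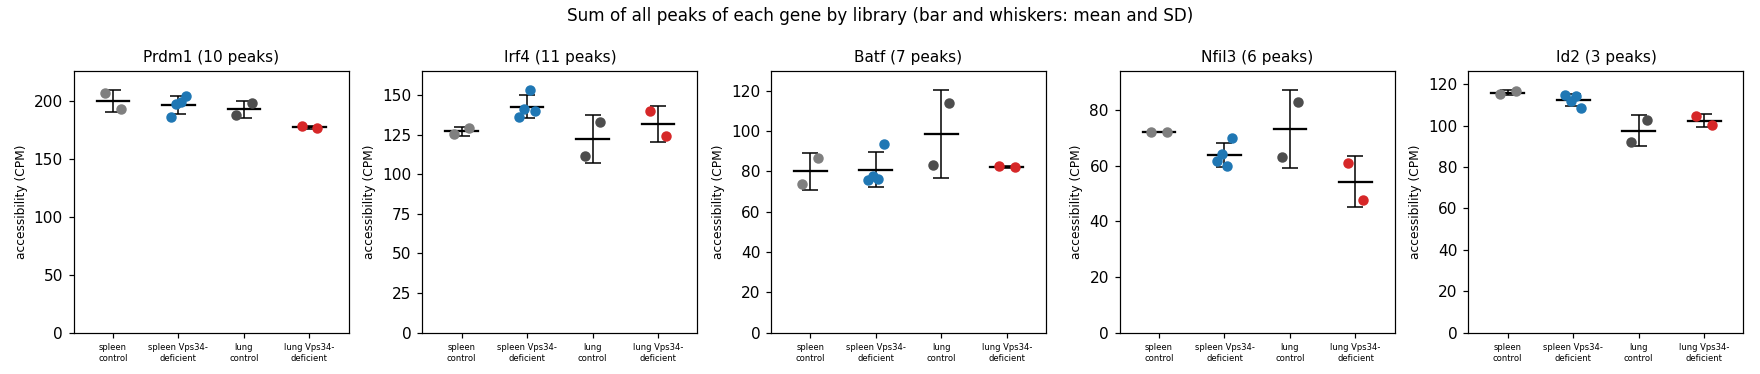
Summed accessibility in CPM (y axis) of all peaks of each of the 5 genes in each library (points) of the 4 groups, with the group mean (bar) and SD (whiskers). No sum was called for genotype or tissue, and the second lung control is the highest library for Batf (114 CPM) and Nfil3 (83.2 CPM).

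Of the 37 peaks 3 were called between lung and spleen in at least 1 genotype. In control Tregs 2 of the 37 peaks were called higher and 0 lower in lung than in spleen, against 11.8% and 3.53% of all peaks. In Vps34-deficient Tregs 1 was called higher and 0 lower, against 12.4% and 4.72%. Over both genotypes 1 was called higher and 0 lower, against 18.4% and 6.51%. In the same order 12, 4 and 8 of the 37 peaks had an unadjusted p below 0.05, as had 28384, 30121 and 37456 of the 97109 tested. Of the gene sums 0 of 5 were called in controls, in Vps34-deficient Tregs or over both, against 8.33%, 9.64% and 11.6% of the genes tested. In that order 2, 0 and 2 of the sums had an unadjusted edgeR p below 0.05, as had 5210, 5679 and 7397 of the 17594 genes tested. DESeq2 called 0 of the 5.

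The peaks called higher in the lung of controls were Nfil3 +4.35 kb, with a log2 difference of 0.64 ± 0.21 (edgeR adjusted p = 0.0409), and the promoter Batf +0.04 kb, with 0.54 ± 0.18 (edgeR adjusted p = 0.0355). The same control libraries enter this comparison and those of genotype. Each of these calls was lost in 16 of 20 other fits, among them those with library size scaling, with DESeq2, with either other filter and without either spleen control. Without the second lung control the values were 0.14 and 0.18. Prdm1 -12.55 kb, at chr10:44471194-44471404 in an intron of a long transcript, was the peak called in Vps34-deficient Tregs and over both genotypes. It had 0.624 and 1.10 CPM in control spleen, 2.37, 1.83, 0.812 and 1.87 CPM in Vps34-deficient spleen, 3.62 and 0.706 CPM in control lung and 3.74 and 4.66 CPM in Vps34-deficient lung. The Vps34-deficient lung libraries were the highest 2 of the 10, while 1 lung control was as low as the spleen controls. The log2 difference of lung from spleen was 1.35 ± 0.46 in Vps34-deficient Tregs (edgeR adjusted p = 0.0409) and 1.35 ± 0.36 over both genotypes (edgeR adjusted p = 0.00545), at a mean of 27.2 counts per library. The call in Vps34-deficient Tregs was lost by DESeq2, under the replicate block, and without either Vps34-deficient lung library or Vps34-deficient spleen library 2, 3 or 4 (1.04 to 1.57), while the call over both genotypes was made in every other fit run. Its genotype log2 fold change was 1.01 ± 0.53 in spleen and 1.01 ± 0.56 in lung (edgeR adjusted p = 0.406 and 0.313). The lung value was 2.63 and called without the first lung control, and 0.23 without the second, and the spleen value was 0.56 without the first spleen control.

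By gene, the log2 difference of summed accessibility in lung from spleen was, for Batf, 0.36 ± 0.13 in controls, 0.10 ± 0.11 in Vps34-deficient Tregs and 0.21 ± 0.09 over both genotypes (edgeR adjusted p = 0.0709, 0.591 and 0.0733). The value in controls was 0.15 without the second lung control and 0.55, and called, without the first. Id2 was at -0.19 ± 0.07, -0.06 ± 0.06 and -0.12 ± 0.05 in the same order (edgeR adjusted p = 0.0754, 0.519 and 0.0708). Nfil3 was at 0.08 ± 0.12, -0.16 ± 0.11 and -0.05 ± 0.09 (edgeR adjusted p = 0.721, 0.357 and 0.685). Prdm1 was at 0.00 ± 0.07, -0.08 ± 0.06 and -0.04 ± 0.04 (edgeR adjusted p = 0.992, 0.369 and 0.481). Irf4 was at -0.00 ± 0.08, -0.04 ± 0.07 and -0.02 ± 0.05 (edgeR adjusted p = 0.995, 0.721 and 0.759).

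**Figure D5:**
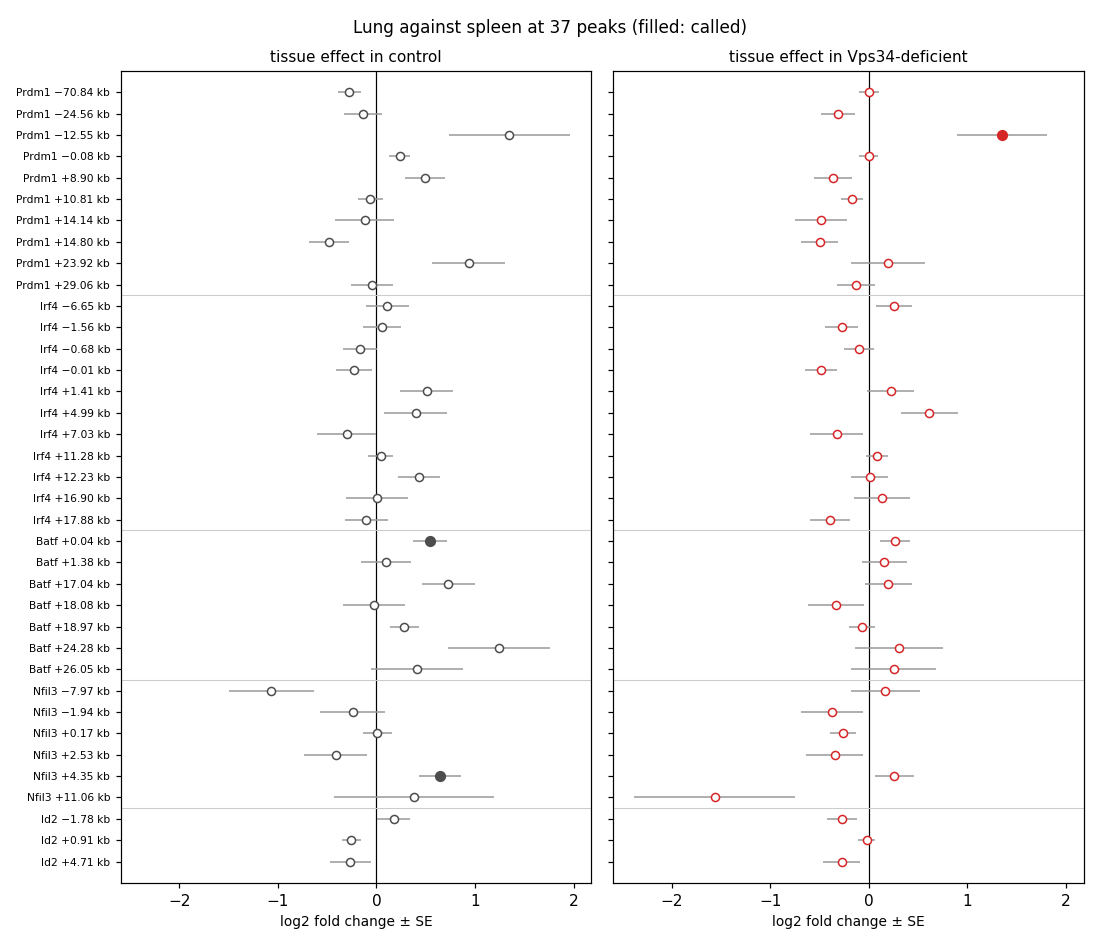
Log2 difference of lung from spleen (x axis, circle) with its standard error (line) at each of the 37 peaks in control (left) and Vps34-deficient Tregs (right), ordered by gene and by distance in kb from the first protein-coding start. Filled circles are called peaks, 2 in controls (0.54 and 0.64) and 1 in Vps34-deficient Tregs (1.35).

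The letters of several binding sites were counted on both strands in the 300 bases around the middle of each peak, as a description of the sequence. The AP-1 letters TGANTCA were in 8 of the 37 windows (21.6%) and in 13.0% of the windows of 96974 tested peaks. All 3 peaks called lower in lung were among these 8, and none was among the 29 without the letters. Over all tested peaks, 8.83% of those with the letters and 2.98% of those without were called lower in lung. The NF-kB letters GGANNTTCC were in 4 windows (10.8%, against 3.98% of all), the IRF letters GAAANNGAA in 4 (10.8%, against 11.2%) and the D-box letters TTANNTAA of NFIL3 in 1 (2.70%, against 6.66%). A BATF-IRF composite, taken as GAAANTGA or as an AP-1 match with TTTC ending 4 bases before it, was in 3 windows (8.11%, against 8.20%), where the former can overlap an IRF match. E-box letters were in 30 windows (81.1%, against 79.2%).

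Other genes of the pathway were counted in the same way. Of 141 peaks at 11 partners, relatives and antagonists of the 5 factors (Junb, Jund, Batf3, Irf8, Id3, Tcf3, Tcf12, Bcl6, Bach2, Hlf and Zbtb7b), 3 were called higher and 2 lower (1.42%) in Vps34-deficient lung Tregs, where 1.22% and 3.74% of all peaks were, and 0 in spleen, where 0.44% and 1.02% were. Their median log2 fold change was 0.13 in lung and 0.17 in spleen, with 0.02 and 0.05 for all peaks. Of 135 peaks at 12 target and effector genes (Il10, Ctla4, Icos, Tigit, Klrg1, Il1rl1, Pparg, Gata3, Ccr8, Maf, Rora and Areg), 30 were called lower in lung (22.2%, against 3.74% of all peaks) and 12 in spleen (8.89%, against 1.02%), and 0 higher in either. The 12 spleen calls lay at Klrg1, Pparg, Il10 and Tigit alone, and in lung Gata3, Maf and Areg had none. The median log2 fold change of the 135 peaks was -0.39 in lung and -0.07 in spleen. In control Tregs 42 of these 135 peaks were called higher and 1 lower in lung than in spleen, where 11.8% and 3.53% of all peaks were, with a median log2 difference of 0.48 against 0.04 for all peaks. In Vps34-deficient Tregs 14 were called higher and 6 lower, where 12.4% and 4.72% of all peaks were, with a median of 0.07 against -0.03. Some of the effector genes were chosen by the study from this kind of sample, so their direction is not independent evidence.

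The genes whose summed accessibility followed each factor most closely over the 10 libraries were found among 14421 protein-coding genes with at least 10 CPM, by the root mean square difference of centred log2 values. For Prdm1 these were Arpc1b (0.0233) and Trpc4ap (0.0246), where Prdm1 itself varied by 0.0738 around its mean. For Irf4 they were Zfp839 (0.0342) and Ptms (0.0485), with 0.120 for Irf4 itself. For Batf they were Slc38a1 (0.0722) and Ifnar1 (0.0750), with 0.176 for Batf itself. For Nfil3 they were Cant1 (0.0546) and Atp6v1g2 (0.0629), with 0.201 for Nfil3 itself. For Id2 they were Tbc1d23 (0.0240) and Hnrnpu (0.0306), with 0.104 for Id2 itself.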

How the data were processed

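ATAC-seq libraries of sorted Tregs were analysed from 1 table of counts. Per the methods, the authors trimmed paired-end reads, aligned them with BWA, removed duplicates, shifted reads for the Tn5 insertion, kept nucleosome-free fragments and called peaks per sample with MACS2. The processing notes name cutadapt 1.9, Picard 1.65, SAMtools, MACS2 2.1.0.20150603 and bedtools. The deposited values are raw counts of reads per peak and library, with replicates not pooled. Both mates were counted (91.5% to 96.5% of counts were even), so fragments are fewer than counts. The methods name another mouse assembly, but 51.2% of protein-coding starts lay in a peak on GRCm38, against 2.44% to 2.95% after shifts, so GRCm38 was used.

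CPM is a count divided by the column total. Peaks were tested with edgeR 4.0.16 (R 4.3.3) on the deposited counts of all 10 libraries, with filterByExpr, TMM factors and 1 coefficient per group, or with tissue and genotype for effects over both, and gene sums likewise. A call required both a log2 fold change beyond 0.5 in either direction and an adjusted p under 0.05. Errors are standard errors of the fit unless called SD. The fit was tested on simulated data. Replicates differed by more than sampling noise, with a chi-square of 1.40 to 2.84 for each degree of freedom on halved counts (2.80 to 5.68 as deposited). Alternatives were other scaling, filters, thresholds and windows, DESeq2 1.42.0, halved counts, a chromosome Y covariate, a replicate block, fewer libraries, and a crossed block, which was chosen after seeing the data.

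The members, lists and motifs were chosen with earlier results of these data known. Peaks given in full are, for each gene, the promoter peak, the highest peak, those called for genotype, the peak with the smallest p over both tissues, and the called tissue peak with the smallest p. Irf4 +11.28 kb was given for both tissues, and Nfil3 -7.97 kb and the peaks beyond 10 kb were named, after their values were seen. The result of 1 marker list is not reported here.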

Additional observations from a re-analysis of the deposited data

Results flagged for a closer look

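The summed accessibility of Batf in the fourth Vps34-deficient spleen library was 93.7 CPM, far above the other 3 libraries of its group, which had 75.5 to 77.7 CPM. Among 42 values tested for such a gap it was the only 1, and chance gives a gap of this kind in about 1 of 20 groups. Nfil3 -7.97 kb, at chr13:52988766-52989311, had genotype values of opposite sign in the 2 tissues. The log2 fold change was -0.27 ± 0.33 in spleen and 0.96 ± 0.45 in lung, and neither was called (edgeR adjusted p = 0.787 and 0.225). The peak had 2.41 and 2.48 CPM in control spleen and 1.67, 2.32, 2.17 and 1.87 CPM in Vps34-deficient spleen, but 1.06 and 1.13 CPM in control lung and 2.44 and 1.91 CPM in Vps34-deficient lung. The difference between the lung and the spleen effect was 1.24 on the log2 scale, and its test by edgeR did not pass (adjusted p = 0.648), at a mean of 30.0 counts per library.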

How the results depend on the processing

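The 2 peaks lower over both tissues, Nfil3 +4.35 kb and Prdm1 +23.92 kb, were called whichever library was left out, while the 3 lung calls needed the second lung control and both Vps34-deficient lung libraries, and that at Prdm1 +23.92 kb also the second spleen control. Prdm1 -12.55 kb and Prdm1 +23.92 kb had means of 27.2 and 41.6 counts per library, and with 2 libraries in a group 1 library can decide a call. Of 71 log2 values recomputed 1460 times, 1343 kept their direction and side of the threshold, 54 were no longer called, 7 were newly called and 56 turned sign, all at values of at most 0.39 in size. The causes were not tested.

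Counts of called peaks changed as follows, where over both means over both tissues or genotypes. For lung against spleen in controls, calls of higher peaks were 0 with library size scaling, median-of-ratios factors, DESeq2, no filter and the filter at 1 CPM. They were 1 on halved counts (with 1 lower peak). In Vps34-deficient Tregs, 2 peaks were lower with library size scaling and with no filter and 1 on halved counts, and DESeq2 called 0 higher. Over both, 1 peak was lower in lung under all of these settings. With the libraries of the effect alone, 1 peak was lower in spleen for genotype, 0 in lung, and 0 were higher in the lung of controls. With the gene body alone 1 peak was lower for genotype over both. Within 25 kb, 4 peaks were lower for genotype over both, and in lung against spleen 6 were higher and 2 lower in controls, 2 and 2 in Vps34-deficient Tregs and 5 and 2 over both. By adjusted p alone 2 peaks were higher for genotype over both, 3 higher and 2 lower in lung over both, and 1 lower in the lung of Vps34-deficient Tregs. At an adjusted p under 0.01 and a log2 fold change over 1, 0 peaks were called for genotype in lung or over both or between tissues in either genotype.

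Leaving out 1 library at a time, called peaks ranged from 0 to 1 lower for genotype in spleen, 0 to 2 higher and 0 to 3 lower in lung, and 0 to 1 higher over both. For lung against spleen they ranged from 0 to 3 higher in controls, 0 to 1 higher and 0 to 2 lower in Vps34-deficient Tregs, and 1 to 3 higher and 0 to 2 lower over both.

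Values that turned sign over those fits ranged for genotype in spleen from -0.0963 to 0.171 (Batf +0.04 kb), -0.164 to 0.129 (Batf +18.97 kb), -0.0824 to 0.143 (Batf sum), -0.000354 to 0.101 (Irf4 -0.01 kb) and -0.0608 to 0.0403 (Prdm1 sum). In lung they ranged from -0.32 to 0.12 (Batf +0.04 kb), -0.49 to 0.11 (Batf +1.38 kb) and -0.28 to 0.16 (Irf4 -0.01 kb), and over both from -0.166 to 0.0203 (Batf sum) and -0.00276 to 0.0407 (Id2 sum). The lung minus spleen difference of the effect at Nfil3 +4.35 kb ranged from -0.55 to 0.11. For lung against spleen the ranges were -0.103 to 0.0983, -0.130 to 0.0483 and -0.0568 to 0.0243 (Irf4 sum in controls, Vps34-deficient Tregs and over both), -0.102 to 0.238, -0.343 to 0.0113 and -0.128 to 0.0533 (Nfil3 sum) and -0.0476 to 0.0535 (Prdm1 sum in controls).

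Other settings turned few signs. Batf +18.97 kb in spleen was -0.0173 with no filter, -0.0171 with the filter at 1 CPM, -0.0112 on halved counts and -0.0109 with the spleen libraries alone. For lung against spleen in controls the Prdm1 sum was -0.0513 with library size scaling, and the Irf4 sum was 0.0167 with median-of-ratios factors, 0.0172 by DESeq2, 0.00227 on halved counts and 0.0512 in the gene body (0.0123 over both). The Id2 sum in Vps34-deficient Tregs was 0.0194 in the gene body. The Nfil3 sum within 25 kb was 0.0157 in Vps34-deficient Tregs and 0.15 over both.

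Whether replicate numbers pair spleen and lung libraries was not settled. Same-numbered libraries deviated from their group means with correlations of -0.138 to 0.0913 and none above 0.1. Some of these pairs cross genotypes, and between groups of 2 libraries the correlation can only turn sign. Chromosome Y peaks of control spleen and lung summed to 56.9 and 67.6 CPM in libraries numbered 1 and to 7.0 and 12.8 CPM in those numbered 2. In Vps34-deficient spleen and lung they summed to 9.88 and 21.4 CPM for number 1 and to 64.8 and 63.4 CPM for number 2. With the replicate block 2 peaks were lower for genotype in lung, without Prdm1 +8.90 kb, and 0 peaks were higher in the lung of controls or of Vps34-deficient Tregs and 2 over both. Under that block, genotype values in spleen turned to -0.0408 (Batf +0.04 kb), -0.0366 (Batf +18.97 kb), -0.0383 (Batf sum), 0.0177 (Nfil3 +0.17 kb) and 0.0305 (Id2 +0.91 kb). With the crossed numbers of the lung groups 3 peaks were lower for genotype in lung, and 1, 0 and 2 were higher in the lung of controls, of Vps34-deficient Tregs and over both. The same values were then -0.0420, -0.0354, -0.0386, 0.0118 and 0.0313.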

Other observations

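Beyond the 10 kb limit, between 10 and 25 kb from the genes, 8 of 16 further peaks were called in at least 1 of 7 comparisons by edgeR's test, as were 32.9% of all tested peaks, and 4 of them are described, named after their values were seen. Nfil3 -17.69 kb, at chr13:52998492-52999025, had 14.8 and 15.8 CPM in control spleen, 9.32, 11.4, 11.6 and 13.5 CPM in Vps34-deficient spleen, 20.4 and 29.1 CPM in control lung and 14.0 and 15.4 CPM in Vps34-deficient lung. All Vps34-deficient libraries were below the controls of their tissue. Its log2 fold change for genotype was -0.79 ± 0.20 in lung (edgeR adjusted p = 0.0224), and lung exceeded spleen in controls by 0.78 ± 0.20 (edgeR adjusted p = 0.00822). Nfil3 -19.67 kb, at chr13:53000580-53000915, had 1.60 to 3.43 CPM in the 6 spleen libraries and 4.23 to 8.61 CPM in the 4 lung libraries, which did not overlap. The log2 difference of lung from spleen was 2.15 ± 0.34 in controls and 1.10 ± 0.29 in Vps34-deficient Tregs (edgeR adjusted p = 0.000165 and 0.00921). Irf4 +37.13 kb, at chr13:30786070-30786641, had 37.7 to 45.3 CPM in spleen and 22.0 to 29.2 CPM in lung, and over both genotypes lung was lower by a log2 difference of -0.67 ± 0.09 (edgeR adjusted p = 4.41e-06). Id2 -20.94 kb, at chr12:25117770-25118382, had 6.60 to 8.65 CPM in spleen and 2.92 to 4.25 CPM in lung, with a log2 difference of -1.05 ± 0.17 over both genotypes (edgeR adjusted p = 5.21e-05). At these 4 peaks the nearest annotated protein-coding start was that of the gene named. The other 4 called peaks were Prdm1 +38.62 kb, lower in Vps34-deficient Tregs over both tissues (log2 -1.30 ± 0.39, edgeR adjusted p = 0.0372), Batf -16.40 kb and Nfil3 +36.53 kb, higher in the lung than in the spleen of controls (1.21 ± 0.40 and 2.41 ± 0.80, edgeR adjusted p = 0.0418 and 0.0402), and Batf -20.20 kb, higher in lung over both genotypes (0.50 ± 0.18, edgeR adjusted p = 0.0326). The nearest start to Nfil3 +36.53 kb was that of Auh.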
